A study of Mus musculus with 4 samples.

Results

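The genes Tcf3, Tcf4 and Tcf12 encode the E proteins, and E2A, the protein whose binding was measured here, is the product of Tcf3. The peaks taken for these genes were those of 2 E2A ChIP-Seq peak lists, 1 from DP and 1 from iNKT thymocytes, whose midpoint lay in the gene body or within 100 kb of it on mm9. The rule found 16 of 17532 peaks in DP cells and 1 of 1516 peaks in iNKT cells. DP cells were thymocytes sorted as CD1dTet- CD4+ CD8+, and iNKT cells were sorted as CD1dTet+ TCRβ+. Both came from L-DKO mice aged 3 to 5 weeks, which carry Id2 f/f, Id3 f/f and an LckCre+ transgene and so lose both Id genes in cells of the T lineage. The strain was C57BL/6, or hybrids of C57BL/6 with 129, and each library held cells pooled from 3 to 4 mice. Each cell type had 1 library of E2A precipitate and 1 of input, and no cells with intact Id genes were among them. The peak lists hold no expression values, so the identity of the cells rests on the sort. They hold no read counts either, so the depth is unknown, and with 1 library per cell type no difference between DP and iNKT cells could be tested.

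E proteins are basic helix-loop-helix transcription factors that bind as dimers to the E-box, a short DNA element of the letters CANNTG. Tcf3 and Tcf12, whose product is called HEB, are the E protein genes best known for their part in thymocyte development, and Tcf4 is best known in plasmacytoid dendritic cells. Id proteins have the dimerization domain but no basic domain, so an E protein paired with an Id protein does not bind DNA. Binding of E2A at Tcf3 would be binding at its own gene, and binding at Tcf12 or Tcf4 would be binding at the gene of another family member. Whether E2A occupied these genes in cells without Id2 and Id3 is the question that the positions below address.

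Sequences from 6 peaks at Tcf12 and Tcf3 are shown first. They are the highest DP peak in each gene's window, the only peaks shared with iNKT cells and the peaks at the first start sites. For the start-site peaks, stretches just upstream of the start are printed. All are the plus strand of mm9, written 5′ to 3′, whereas both genes run on the minus strand. Capitals mark CAGGTG and CAGCTG E-boxes read on either strand, so that CAGGTG may stand as CACCTG. Upstream of the Tcf3 start the window held neither, and capitals there mark its sole CANNTG. The stretches are chr9:72053739-72053858 in the highest peak near Tcf12, chr9:71945963-71946082 and chr9:71944862-71945135 in the shared pair of intron 3, chr9:71959841-71960058, which is 215 to 432 bp upstream of the Tcf12 start, chr10:79862568-79862688 in the highest peak near Tcf3, and chr10:79896724-79896923, which is 332 to 531 bp upstream of the Tcf3 start. None of these stretches touched an annotated exon. The highest peak near Tcf3 lies over the start of Mbd3, with its midpoint 505 bp from that start and 33.6 kb from the Tcf3 5′ end. The highest near Tcf12 has its midpoint 93.8 kb from the Tcf12 5′ end and 30.6 kb from that of Gm7866. In the highest peak of each window the marked E-boxes are off centre, with stretches at 352 to 471 bp from the midpoint near Tcf12 and at -232 to -112 bp near Tcf3. The 200 bp at the midpoint of either peak held 0 CANNTG.
Tcf12 upstream peak: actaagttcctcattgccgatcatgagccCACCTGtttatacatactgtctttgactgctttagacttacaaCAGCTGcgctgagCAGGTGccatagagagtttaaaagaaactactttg
Tcf12 intron 3, higher peak: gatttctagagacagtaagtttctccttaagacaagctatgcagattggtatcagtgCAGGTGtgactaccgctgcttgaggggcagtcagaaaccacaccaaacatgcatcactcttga
Tcf12 intron 3, lower peak: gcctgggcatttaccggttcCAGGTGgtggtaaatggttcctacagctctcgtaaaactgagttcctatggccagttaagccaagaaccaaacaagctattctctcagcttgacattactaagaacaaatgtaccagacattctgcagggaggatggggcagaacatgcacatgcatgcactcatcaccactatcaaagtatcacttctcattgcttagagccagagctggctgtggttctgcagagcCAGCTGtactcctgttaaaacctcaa
Tcf12, upstream of the start: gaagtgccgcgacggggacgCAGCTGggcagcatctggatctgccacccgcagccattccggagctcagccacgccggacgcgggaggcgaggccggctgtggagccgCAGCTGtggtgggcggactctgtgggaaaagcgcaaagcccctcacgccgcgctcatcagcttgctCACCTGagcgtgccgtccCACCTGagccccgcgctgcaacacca
Tcf3 downstream peak: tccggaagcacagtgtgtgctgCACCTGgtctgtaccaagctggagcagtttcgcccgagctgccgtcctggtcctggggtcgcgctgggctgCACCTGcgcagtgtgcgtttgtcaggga
Tcf3, upstream of the start: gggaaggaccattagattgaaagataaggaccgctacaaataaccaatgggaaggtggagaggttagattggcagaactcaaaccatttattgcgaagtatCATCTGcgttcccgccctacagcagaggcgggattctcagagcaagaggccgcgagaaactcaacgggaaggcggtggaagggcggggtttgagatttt

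Tcf12 had the most peaks of the 3 genes. It lies at chr9:71692059-71959626 on the minus strand, and its body of 268 kb and the 100 kb to either side held 8 DP peaks and 1 iNKT peak. The values are the authors' MACS scores, which are −log10 of the p-value of a peak against its input, multiplied by 10. The highest DP peak at any of the 3 genes, at chr9:72052159-72054616, scored 1419.8 and ranked 1067 of 17532. It was the widest too, at 2458 bp, and held 4 CAGGTG and 5 TTATCT, the core letters of GATA sites. Its midpoint lay 93.8 kb upstream of the Tcf12 5′ end and 30.6 kb from that of Gm7866, which is nearer. A second DP peak, at chr9:72055574-72056780, began 957 bp past its edge and scored 147.9. Another upstream peak, at chr9:72014394-72015216, lay 55.2 kb from Tcf12 and 7.98 kb from Gm7866, and scored 147.6. These 3 peaks were thus nearer to the annotated start of another gene than to that of Tcf12.

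The peaks shared by both cell types lay in intron 3 of Tcf12, counted in a transcript of 21 exons. In DP cells there was a pair of peaks, at chr9:71944452-71945544 with a score of 200.1 (rank 6841) and at chr9:71945571-71946609 with a score of 493 (rank 3396). They were 26 bp apart, and their midpoints were 14.6 kb and 13.5 kb into the gene. In iNKT cells a single peak, at chr9:71944738-71946576, ran across both. It was 1839 bp wide and covered 73.8% of the lower and 96.8% of the higher DP peak. Its score of 51.3 ranked 1450 of 1516 in the iNKT list. An iNKT peak that reached over more than 1 DP peak was uncommon, with 8 of 1516 (0.528%), while 1042 (68.7%) overlapped exactly 1.

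A further 3 DP peaks lay at or in Tcf12, all of lower score. A peak at chr9:71959497-71960286 covered the 5′ end, with a score of 93.2 and its midpoint 265 bp upstream, and held 2 CAGGTG and 2 CAGCTG. The next, at chr9:71958141-71959136, scored 88.1 and had its midpoint 988 bp into the gene, over exon 2, which is untranslated there. The peak at chr9:71823653-71824289 scored 62.2 and lay in intron 5, 136 kb from the Tcf12 5′ end and 84.7 kb from that of Rpl15-ps2, which is nearer. Over all 3 genes, 8 of 16 DP peaks were nearer to the 5′ end of an E protein gene than to that of any other protein-coding gene. With the start of every annotated transcript the count was 9, as the intron 5 peak was then nearest to Tcf12. A short Tcf12 transcript starts 216 kb into the gene, and the DP peak nearest to that start was 80.1 kb away from it.

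**Figure D1:**
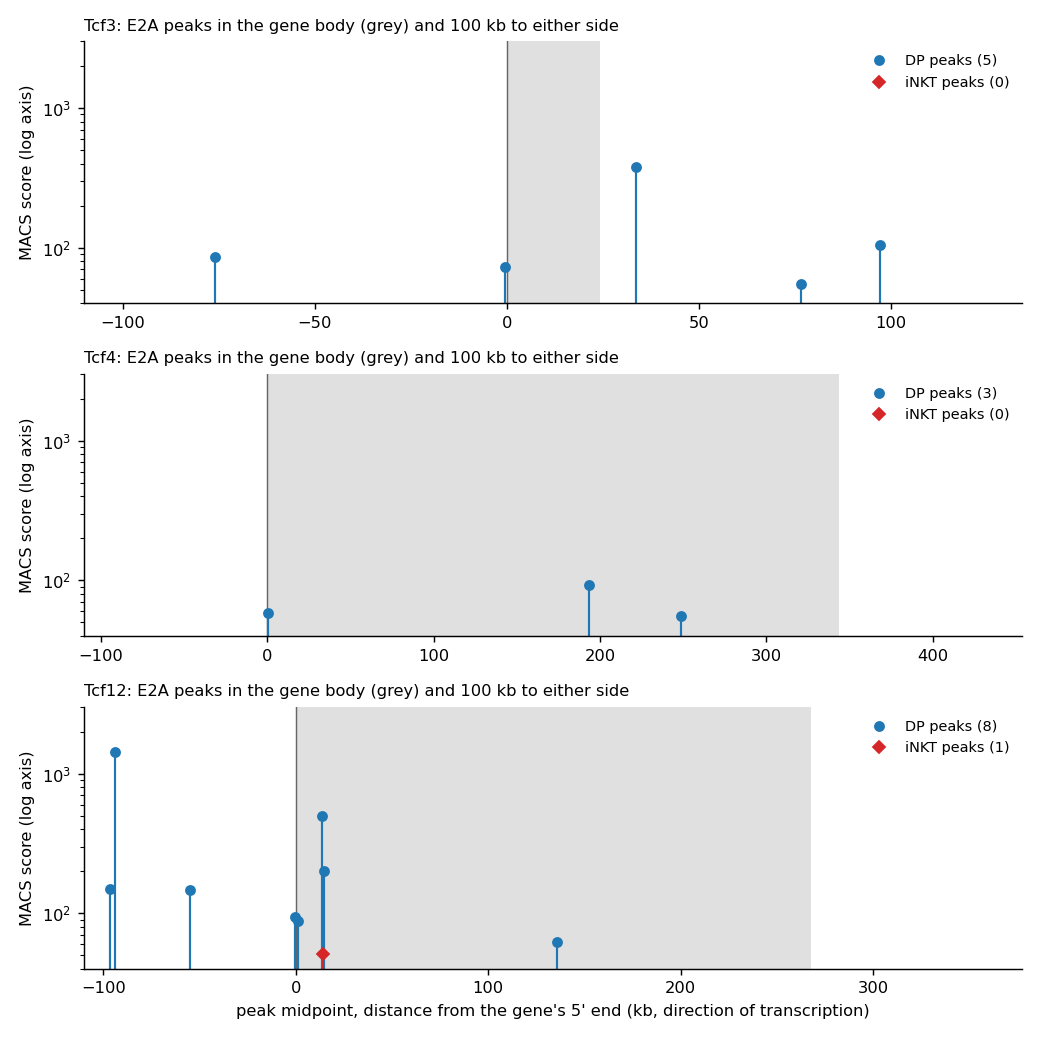
E2A peaks at Tcf3, Tcf4 and Tcf12 by distance of the midpoint from the gene's 5′ end (x axis, kb in the direction of transcription, body in grey) and MACS score (y axis, log scale), with DP peaks in blue and iNKT peaks in red. Tcf12 holds the highest peak, 93.8 kb upstream with a score of 1419.8, and the only iNKT peak, which sits over the DP pair at 13.5 and 14.6 kb.

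Tcf3 itself, at chr10:79872259-79896392 on the minus strand, had no peak in its body of 24.1 kb in either list. Its window held 5 DP peaks and 11 other protein-coding genes, and no iNKT peak. The peak nearest to Tcf3, at chr10:79896400-79897246, started 8 bp upstream of the 5′ end and scored 72.4, which ranked 13580 of 17532. Of 14 annotated Tcf3 transcripts, 8 start within 1 kb of its midpoint. It contained 3 E-boxes, a CATCTG at 5 bp from the midpoint and a CAAGTG at either side, and neither CAGGTG nor CAGCTG.

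The other 4 DP peaks near Tcf3 were each nearer to another gene. The highest, at chr10:79862233-79863367, scored 381 (rank 4244) and lay over the start of Mbd3, a subunit of the NuRD chromatin-remodelling complex, with its midpoint 505 bp from that start and 33.6 kb from the Tcf3 5′ end. Farther downstream, a peak at chr10:79798466-79800163 scored 104.5 and touched an exon of Reep6, 97.1 kb from Tcf3. A peak at chr10:79819333-79820362 scored 54.5 and lay in Plk5, 643 bp from the Plk5 start. On the upstream side, a peak at chr10:79971855-79972924 scored 85.4 and lay in an intron of Onecut3, 76.0 kb from Tcf3.

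Tcf4, on the plus strand at chr18:69503800-69847621, had 3 DP peaks, all in its body of 344 kb, and no iNKT peak. Its window held no other protein-coding gene. The peak at chr18:69503588-69504549 covered the 5′ end of the gene and scored 58.2 (rank 15773). The highest, at chr18:69696762-69697710, scored 93.3 (rank 11495) and lay in intron 6 of a transcript of 20 exons, 193 kb into the gene. The lowest, at chr18:69752256-69752913, scored 56.0 (rank 16201), and its midpoint was 487 bp upstream of the start of Tcf4-007, 1 of 2 protein-coding transcripts that begin about 249 kb into the gene. Both the first start of Tcf4 and this internal start therefore had a low-scoring DP peak within 1 kb.

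**Figure D2:**
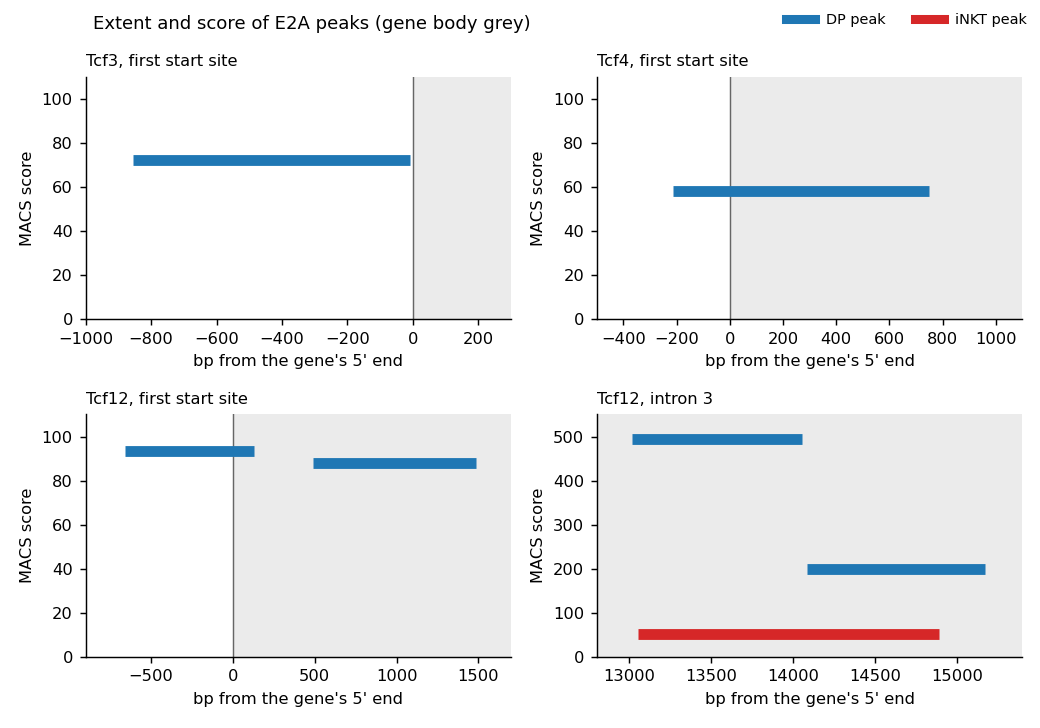
Extent of the E2A peaks (horizontal bars, x axis in bp from the gene's 5′ end) and their MACS score (y axis) at the first start sites of the 3 genes and in Tcf12 intron 3. The start-site peaks score between 58.2 and 93.2, and in intron 3 the red iNKT bar with a score of 51.3 reaches over both blue DP bars with scores of 200.1 and 493.

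A start-site peak in DP cells was common to all 3 genes. A DP midpoint lay within 1 kb of the 5′ end in 3 of 3 genes, and in 11.6% of all 22350 protein-coding genes. This measure was chosen after the values had been seen. None of these peaks reached a score of 100, so with that minimum the count was 0 of 3, against 6.16% of all genes. In iNKT cells the count was 0 of 3, with 0.434% of all genes. At the level of the whole window, 3 of 3 genes had a DP peak, as did 65.1% of all genes, and 1 of 3 had an iNKT peak, as did 16.9%. A peak inside the body was found for 2 of 3 genes in DP cells, against 20.4% of all genes, and for 1 of 3 in iNKT cells, against 3.00%. The bodies of Tcf4 and Tcf12, which held those peaks, are 344 and 268 kb long, and the part of body length in these counts was not tested.

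The 16 DP peaks were spread over the DP list. Their median score was 93.3, with a range of 54.5 to 1419.8, while the median of the whole DP list was 140.5 with quartiles of 76.2 and 366. Of the 16, 6 exceeded the list's median, 1 ranked among its top 10% and 4 among its lowest 20%. A score of 100 or more was reached by 7 of 16 (43.75%) and by 62.6% of the list. By gene, the median was 147.7 for the 8 peaks at Tcf12, 85.4 for the 5 at Tcf3 and 58.2 for the 3 at Tcf4. Their ranges overlapped. The sequence of the peaks was largely unique in the assembly, since between 90.1% and all of the 31-base words in each occurred once. Only reads with a unique best position had been kept, so this could be foreseen for any peak. The share over all DP peaks is not given here.

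**Figure D3:**
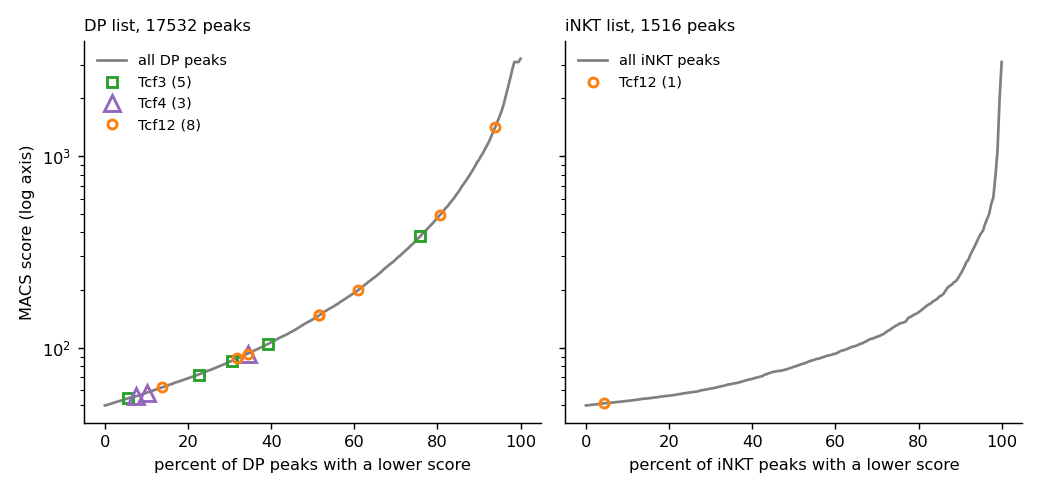
MACS score (y axis, log scale) against the percent of peaks in the same list with a lower score (x axis), for all peaks (grey line) and those at Tcf3, Tcf4 and Tcf12 (symbols). In the DP list 6 of the 16 symbols lie above the median score of 140.5, and in the iNKT list the 1 symbol lies near the bottom.

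Between the cell types, 2 of 16 DP peaks at these genes overlapped an iNKT peak by at least 1 bp (12.5%, 95% Wilson interval 3.50 to 36.0%, counting error only), compared with 5.99% of all DP peaks. Both are the Tcf12 intron pair and meet the same iNKT peak, so they amount to 1 place. The interval takes the peaks as independent and does not allow for this. In the other direction the 1 iNKT peak overlapped a DP peak, as 69.3% of all iNKT peaks did. Overlap rose with the score in the list as a whole. Of the 3396 DP peaks that scored 493 or more, 703 (20.7%) met an iNKT peak, and of the 1067 that scored at least as high as the peak upstream of Tcf12, 430 (40.3%) did. That peak was not among them, and the nearest iNKT peak upstream of Tcf12, at chr9:72237885-72238995 with a score of 219, lay 279 kb from the Tcf12 5′ end and was nearest to Mns1. No iNKT peak was found within 300 kb of Tcf3 or Tcf4, and the closest ones were 481 and 652 kb from the genes. Since the iNKT list holds fewer peaks and the depth of either library is unknown, a missing iNKT peak does not show that binding was absent.

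The E-box content of the DP peaks depended on where it was counted. In the 200 bp at the midpoint, CAGGTG was found in 3 of 16 peaks (18.75%, 95% Wilson interval 6.59 to 43.0%), and in 43.9% of all DP peaks. In flanks 2 kb away it was found in 3 of 32 windows (9.38%) beside these 16 peaks and in 15.6% of windows beside all DP peaks. Over the whole peak it was found in 13 of 16 (81.25%), near the 79.0% of all DP peaks. Accordingly the nearest CAGGTG lay a median of 126.5 bp from the midpoint in those 13 peaks, and 83.5 bp from it in the 13849 DP peaks that held one. By score, CAGGTG was at the midpoint in 2 of 9 peaks below 100, against 40.9% of such peaks in the list, and in 1 of 7 at or above it, against 45.8%. CAGCTG was at the midpoint in 3 of 16 peaks, compared with 29.0% of the list, and anywhere in 9 of 16, compared with 63.4%. Any CANNTG, a class that includes both, was at the midpoint in 10 of 16 peaks and in 83.6% of the list. The file gives no summits, so the midpoint stands for the centre of binding.

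**Figure D4:**
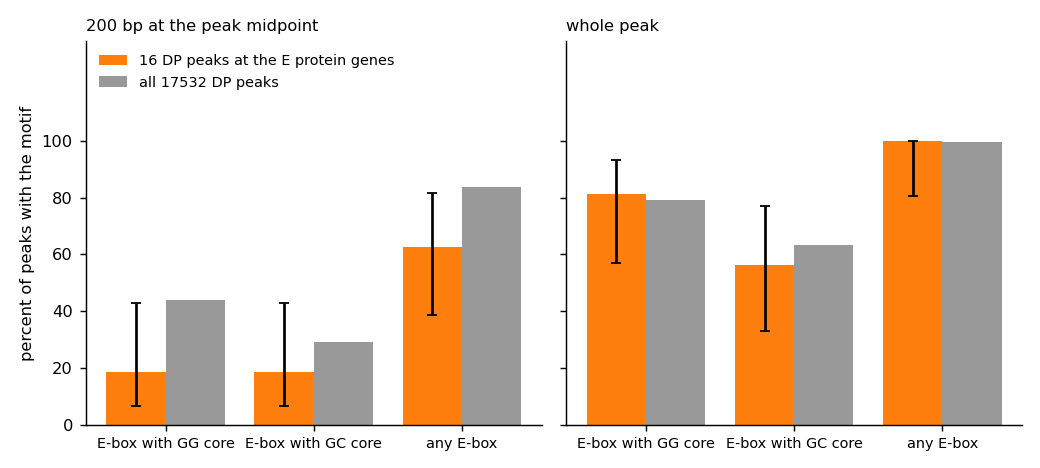
Percent of DP peaks (y axis) that hold CAGGTG (GG core), CAGCTG (GC core) or any CANNTG (any E-box), in 200 bp at the midpoint and in the whole peak, for the 16 peaks at the E protein genes (orange, bars with 95% Wilson intervals) and for all DP peaks (grey). At the midpoint the share with CAGGTG is 18.75% against 43.9%, and over the whole peak it is 81.25% against 79.0%.

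The 16 DP peaks together held 109 CANNTG sites. The most frequent was CAGGTG with 26, in 13 peaks, followed by CAGATG with 17, in 11 peaks, and CACATG with 16, in 6 peaks. CAGCTG, which is its own reverse complement, had 10, in 9 peaks. Per kb, CAGGTG was denser in the peaks than in the rest of the window at Tcf12, with 1.44 against 0.700 per kb, and in the Tcf3 window, with 2.08 against 1.41. The peak at the Tcf3 start held no CAGGTG, so those counted there lay in the peaks nearer to other genes. At Tcf4 the peaks held 1 CAGGTG, or 0.389 per kb, and the rest of the window 0.545 per kb. For CAGCTG the peaks of the Tcf3 window were less dense than the rest, with 0.519 against 0.696 per kb. At Tcf12 its density was 0.553 in the peaks against 0.449, and at Tcf4 0.779 against 0.392. Cores of other thymic factors were also counted at the midpoint. ACCACA, the core bound by Runx factors, was in 4 of 16 peaks (list 23.8%), TCAAAG, bound by TCF and LEF factors, in 3 of 16 (list 17.4%), and TTATCT in 1 of 16 (list 8.89%). All motifs were searched on both strands.

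Among all protein-coding genes, the E protein genes were not at the extreme. The number of DP peaks in the window was lower than that of Tcf12 for 88.2% of genes, lower than that of Tcf3 for 74.9% and lower than that of Tcf4 for 59.9%. Per 100 kb of window, which allows for gene length, the density was 1.71 peaks at Tcf12, 2.23 at Tcf3 and 0.552 at Tcf4, with a median of 0.607 over all genes. By this measure 71.3%, 78.4% and 49.8% of genes were lower, so that Tcf3 came before Tcf12. The highest score in the window placed Tcf12 above 87.3%, Tcf3 above 66.5% and Tcf4 above 44.1% of genes. The Tcf3 window also holds 11 other genes, so its peaks count for some of them too.

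**Figure D5:**
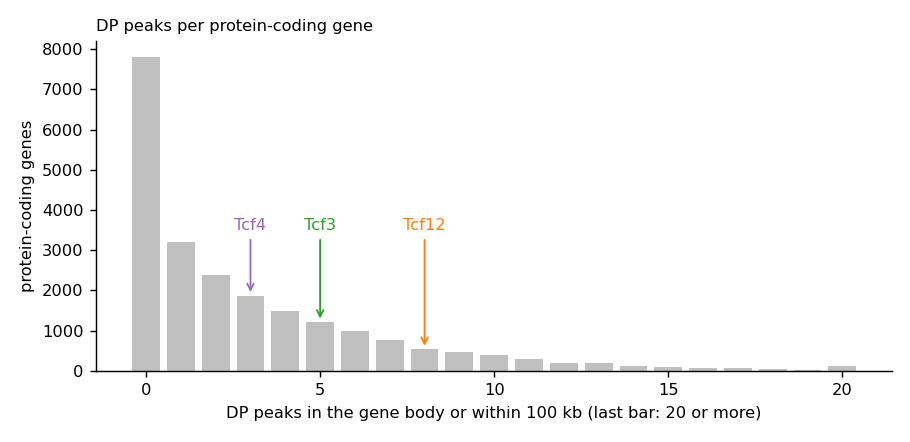
Number of protein-coding genes (y axis) by their number of DP peaks in the body or within 100 kb (x axis, the last bar holding all genes with 20 or more), with the E protein genes marked. Tcf4 has 3 peaks, Tcf3 has 5 and Tcf12 has 8, where the median gene has 2.

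The surroundings of the genes differed. Within 300 kb Tcf4 still had only its 3 DP peaks, and the nearest others were 478 kb upstream and 754 kb downstream of its body. Widening the window to 300 kb raised the count to 21 at Tcf3 and 18 at Tcf12, where the highest scores became 552 and 3100. Next beyond the Tcf3 window were DP peaks at 105 kb downstream of its body, nearest to Apc2, with a score of 50.4, and at 123 kb upstream, nearest to Rexo1, with a score of 83.2. At Tcf12 the next lay 224 kb upstream, nearest to Zfp280d, with a score of 218, and 254 kb downstream of the body, nearest to Grinl1a, with a score of 50.4.

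Genes that act with E proteins were read by the same window. Of 10 genes for inhibitors and other basic helix-loop-helix factors, 6 had a DP peak and 3 an iNKT peak, against 65.1% and 16.9% of all protein-coding genes, so the DP share of this list was not above that of all genes. Id3, Id1 and Id2, which encode inhibitors of E proteins, had 21, 15 and 13 DP peaks and 5, 0 and 1 iNKT peaks, while Id4 had none in either list. The highest DP score at each of Id1, Id2 and Id3 was 3100, a value that 258 DP peaks share and only 26 exceed, so it gives no order among them. Each of these 3 genes had more DP peaks in its window than any E protein gene. Only 1 of those peaks, at Id3, lay in the gene body, and 0 lay within 1 kb of the 5′ end. The windows of Id1, Id2 and Id3 also hold 4, 1 and 3 other protein-coding genes. Lyl1 had 4 DP peaks, Ascl2 had 3 and Bhlhe40, a repressor of the same protein class, had 1, at its start, with a score of 248. Tal1, a partner of E proteins in blood progenitors, and Msc had no peak, and Tal2 had 1 iNKT peak with a score of 53.3 and no DP peak.

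Of 10 cofactor genes, 9 had a DP peak and 2 an iNKT peak, again against 65.1% and 16.9% of all protein-coding genes. Runx1t1 was without either. Cbfa2t3 and Cbfa2t2, which with Runx1t1 encode corepressors of the ETO family that bind E proteins, had 17 and 11 DP peaks, with top scores of 3100 and 1891, and Cbfa2t3 also had 5 iNKT peaks. Ep300, a histone acetyltransferase that serves E proteins as a coactivator, had 6 DP peaks, 1 of them at its start, and 1 iNKT peak with a score of 55.1. Its relative Crebbp had 2 DP peaks. The remaining cofactors, Kat2a, Kat2b, Ldb1, Lmo1 and Lmo2, had between 1 and 3 DP peaks and no iNKT peak. The median gene of either list had 2 DP peaks, which is also the median of all protein-coding genes. Per 100 kb of window the median was higher, at 0.983 for the inhibitors and partners and 0.917 for the cofactors, against 0.607 for all genes.

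The genes on other chromosomes whose peak numbers and summed scores in both lists were most like those of each E protein gene were named by Euclidean distance on log2 values of these 4 measures. For Tcf3 they were Sh2d6, A930016O22Rik and Ckm, each with 5 DP peaks and no iNKT peak. Those most like Tcf4 were Ubl3, B3galt4 and Daxx, with 3 DP peaks each. For Tcf12 they were Pars2, Ttc4 and Nmb, with 8 DP peaks and 1 iNKT peak each. A930016O22Rik and Ckm, B3galt4 and Daxx, and Pars2 and Ttc4 had equal values in pairs. The genes of each pair lie on the same chromosome (7, 17 and 4), and whether their windows hold the same peaks was not tested.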

How the data were processed

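E2A ChIP-Seq was done on fixed, sonicated DP and iNKT thymocytes with the antibody V-18. Per the labels and the study's methods, the authors used Bowtie 1.1.2 for alignment to mm9, where only reads with a unique best position were kept, which loses repeated sequence, and MACS 1.4.2 with its defaults for peak calling. The deposited value is the MACS score of each peak. It grows with depth, so scores were not compared as amounts between the lists. They were ranked within a list, summed per list for the search for like genes, and cut at the same minimum of 100 in both lists as an alternative, which need not mean the same binding in each. Reads and inputs are not analysed here.

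Starts were counted from 1, a peak was placed by its midpoint, and ties share the best rank. Genes came from GENCODE M1 on NCBIM37, the same assembly as mm9. Wilson intervals (95%) cover counting error only. Simulated data with known answers were used as tests, of which 6 of 6 were recovered. The genes, lists and settings were chosen with earlier results of these data known, and start-site peaks were added to the printed sequences after their values were seen. Genes were named if they were E protein genes, list genes, neighbours of a peak or the 3 most alike. Alternatives changed the window, the minimum score, the overlap, the motif window and the start sites. Sequences were read with samtools 1.23.1 and pysam 0.24.0, tables with pandas 2.3.3 and figures drawn with matplotlib 3.10.9, all under Python 3.11.15.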

Additional observations from a re-analysis of the deposited data

How the results depend on the processing

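Of 35 values recomputed for 11 results, 21 stayed within 1.5 times the reported count, or within its Wilson interval for a share, and 14 did not. Counting gene bodies only left 0 DP peaks at Tcf3 and 4 at Tcf12, and a margin of 30 kb left 2 and 5. With a minimum score of 100, the DP peaks numbered 2 at Tcf3, 0 at Tcf4 and 5 at Tcf12, the iNKT peak at Tcf12 was lost (0), and so were both overlaps (0 DP and 0 iNKT peaks) and the start-site peaks (0 of 3 genes, an alternative chosen after seeing the data). Requiring 50% of both peaks to be shared left 1 shared DP peak. CAGGTG was in 81.25% of the 16 DP peaks over the whole peak and in 0% at the central 50 bp, where all DP peaks had 79.0% and 13.7%. No paired analysis was possible because there is 1 library per cell type and the labels give no replicate numbers. The unknown depth limits every statement on a missing peak, in DP and in iNKT cells.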
